A study of Homo sapiens with 6 samples.

Results

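The genes described here encode the proteins that write, maintain, remove and read DNA methylation. They were a fixed list of 10 symbols looked up by gene name among 57396 genes in the deposited count table: DNMT1, DNMT3A, DNMT3B, UHRF1, HELLS, TET1, TET2, TET3, MBD2 and MBD3. Of these, 9 were found by name. No row carried the name UHRF1, 3413 rows carried an Ensembl identifier without a name, and UHRF1 was not analysed here. PC-3 cells, an established line from a metastasis of a prostate carcinoma, were exposed for 5 days to 160 micromolar S-adenosylmethionine (SAM) or to vehicle, labelled PBS, with 3 libraries per group. The comparison bears on whether supplying the methyl donor of DNA methyltransferases was accompanied by altered transcript levels of the methylation machinery. The labels give no other difference between the groups, and all libraries came from this 1 cell line. Nothing in the labels says that replicates were separate cultures, so the spread that enters each p-value may be technical.

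SAM carries the methyl group that DNMT1, DNMT3A and DNMT3B transfer to cytosine, mostly in CpG dinucleotides. DNMT3A and DNMT3B place methylation on unmethylated DNA, whereas DNMT1 copies it onto the new strand after replication. UHRF1 recruits DNMT1 to replicated DNA, and HELLS, a chromatin remodeller, opens nucleosomal DNA to methylation. The TET dioxygenases oxidise methylcytosine as the first step of its removal. MBD2 binds methylated CpG and recruits the NuRD deacetylase complex, of which MBD3 is the alternative subunit with little affinity for methylated DNA.

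Gene counts per library were 28995160, 12020601 and 15467639 in SAM 1 to 3, and 9379258, 21768273 and 19985193 in control 1 to 3. SAM 2 and control 1 were the shallowest of their groups. SAM 3 stood apart in its dependence on transcript length and base composition. Relative to the mean of all libraries, its log2 level changed by -0.11 per doubling of transcript length. This trend was -0.05 and 0.03 in SAM 1 and SAM 2, and 0.07, 0.01 and 0.05 in control 1 to 3. SAM 1 and SAM 3 thus lay below every control in this trend, and SAM 2 lay within the control range. Per 10 percentage points of GC the level changed by 0.12 in SAM 3, against -0.06 to -0.001 in the other libraries. The line's epithelial markers KRT8, KRT18 and EPCAM were present at 399 CPM (reads of the gene scaled to a common effective library size) or more in every library. KLK3, which encodes prostate-specific antigen, had no count in any library. Among markers of leukocytes, fibroblasts, endothelium and hepatocytes COL1A1 alone passed the filter on low counts (log2 fold change -0.08, edgeR adjusted p not under 0.05), and the others found by name had at most 12 counts in a library.

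The SAM libraries had less DNMT3A and more HELLS and MBD3 than the controls. Of the 9 genes measured, 2 rose, 1 fell and 6 did not pass an adjusted p under 0.05 over all 15312 tested genes. Across all tested genes 10.4% passed in either direction, 5.19% as higher and 5.24% as lower. The SAM and control libraries did not overlap in 5 of the 9 genes, against 36.7% of all tested genes. SAM lay above in 3 of these, against 17.9% of tested genes, and below in 2, against 18.8%. The median log2 fold change was 0.03 over the 9 genes and -0.01 over all tested genes. In bulk RNA, a change in every cell and a change in the share of cells that express a gene cannot be told apart. All 9 genes passed the filter on low counts, with 31 to 8651 counts per library.

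**Figure D1:**
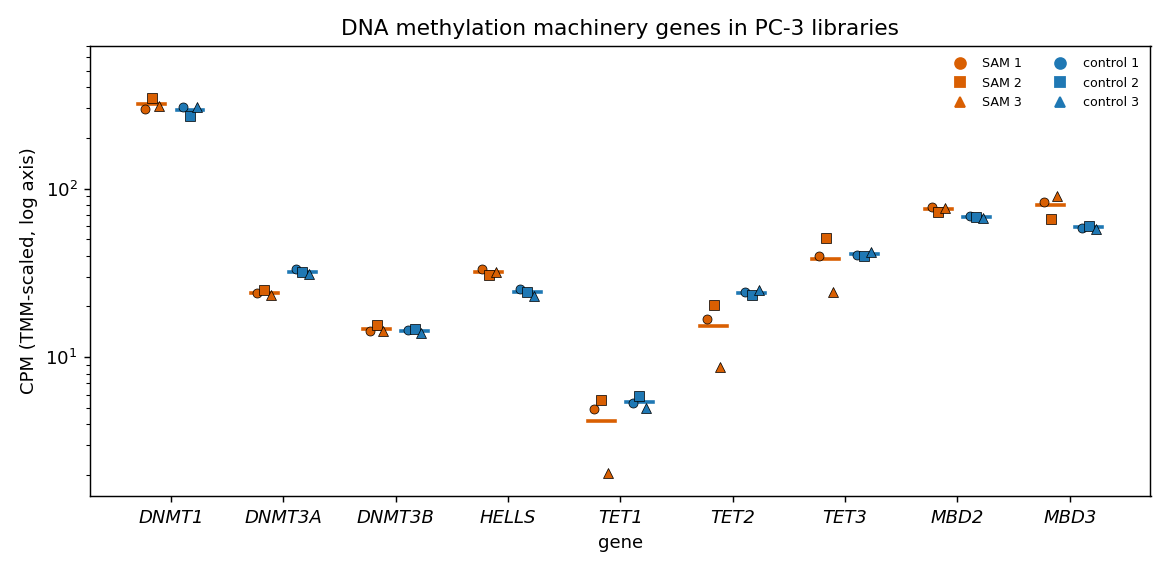
Levels in CPM, drawn on a vertical log axis, for the 9 genes (horizontal), SAM in orange left of control in blue, with a symbol per library and a bar for the group mean of 3. For DNMT3A and TET2 all SAM libraries lie below all controls, for HELLS, MBD2 and MBD3 all lie above, and SAM 3 (triangle) is the lowest library for TET1, TET2 and TET3.

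**Figure D2:**
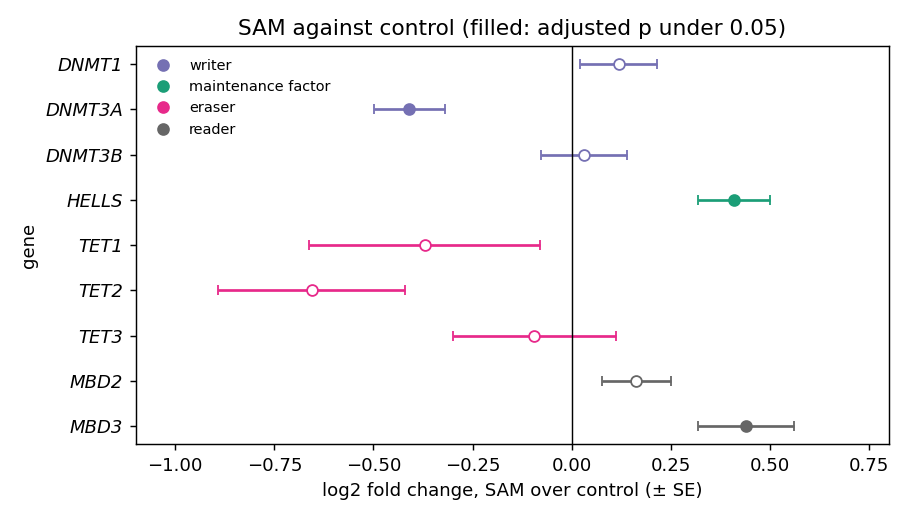
Log2 fold change of SAM over control with its SE (horizontal) for the 9 genes (vertical), coloured by role and filled where the adjusted p was under 0.05. DNMT3A lies at -0.41, HELLS at 0.41 and MBD3 at 0.44, while TET2 has the largest difference, -0.66, with an SE of 0.24.

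Among the writers, only the de novo enzyme DNMT3A passed the test. DNMT3A (ENSG00000119772, chr2:25227855-25342590 in GRCh38, minus strand) had 24.0, 25.0 and 23.4 CPM in SAM 1 to 3, against 33.5, 31.9 and 30.9 CPM in control 1 to 3. The groups did not overlap, and the gap between them was wider than the range within either. DNMT3A averaged 24.1 ± 0.839 CPM with SAM and 32.1 ± 1.27 CPM in controls (SD, n = 3), which gave -0.41 as log2 fold change (SE 0.09, edgeR adjusted p = 0.0222). It was lower in 3 of 3 SAM libraries than in every control. DNMT3A did not pass without SAM 1 or control 1, 2 or 3, where the adjusted p ran from 0.0806 to 0.117, with log2 fold changes of -0.44 to -0.38 over every library left out.

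DNMT3B (ENSG00000088305, chr20:32762385-32809356, plus strand), the second de novo enzyme, had 14.4, 15.5 and 14.3 CPM with SAM, against 14.6, 14.8 and 13.9 CPM in controls. The groups overlapped throughout. Its log2 fold change was 0.03 with a 95% interval of -0.21 to 0.27 (edgeR adjusted p = 0.871), an interval that does not hold the value of DNMT3A. Within each library the ratio of DNMT3A to DNMT3B, which does not depend on library scaling, was 1.67, 1.62 and 1.63 in SAM 1 to 3, against 2.29, 2.16 and 2.23 in control 1 to 3. The ratio was lower in every SAM library than in every control (log2 difference -0.44). Its exact two-sided permutation p was 0.1, the smallest that 3 against 3 libraries allow, and 0.167 after adjustment over the 5 ratios computed.

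DNMT1 (ENSG00000130816, chr19:10133345-10231286, minus strand), the maintenance methyltransferase, was the most abundant of the genes. It had 298, 342 and 310 CPM in SAM 1 to 3, against 304, 268 and 303 CPM in control 1 to 3. SAM 1 lay below controls 1 and 3, so the groups overlapped. The log2 fold change was 0.12 with a 95% interval of -0.10 to 0.34 (edgeR adjusted p = 0.436).

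HELLS (ENSG00000119969, chr10:94501434-94613905, plus strand) was higher with SAM. It had 33.2, 30.9 and 32.1 CPM in SAM 1 to 3, against 25.4, 24.2 and 23.0 CPM in control 1 to 3. The lowest SAM library was above the highest control. HELLS averaged 32.0 ± 1.15 CPM with SAM and 24.2 ± 1.20 CPM in controls (SD, n = 3), a 1.33-fold rise (log2 fold change 0.41, SE 0.09, edgeR adjusted p = 0.0236). Without SAM 1 or control 1, 2 or 3 it no longer passed, with adjusted p of 0.0892 to 0.158, and the log2 fold change stayed between 0.37 and 0.44 whichever library was left out.

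HELLS is expressed mainly in dividing cells, and E2F factors drive many genes of the start of replication. The 250 bases before the RefSeq start of each gene (GRCh38.p14) were searched on both strands for the E2F words TTTGGCGC, TTTCGCGC, TTTCCCGC and TTTGCCGC, and all 10 listed genes had an entry. HELLS held 2 of these words and UHRF1 held 1, whereas the other 8 held none. At least 1 word was present in 2.79% of 27305 promoters. The pair of stretches in HELLS is shown because HELLS rose, as did several replication genes. The RefSeq start of HELLS lies inside a longer annotated isoform. Each is 30 bases on the plus strand with the word in capitals, the first word starting 76 bases before the start (chr10:94545701-94545730) and the second starting 8 bases before it (chr10:94545769-94545798). A match of letters is a description and no evidence of binding.
HELLS upstream: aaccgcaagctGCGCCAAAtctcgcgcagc
HELLS start: gatgacaggatTTTCCCGCgaaggagaagc

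Several S-phase markers rose with SAM, as did HELLS. Of 20 markers of DNA replication, 6 rose and none fell, beside 5.19% higher and 5.24% lower among all tested genes. A positive fold change was found in 19, and the median log2 fold change was 0.28, beside -0.01 over all tested genes. The rises were E2F1, a transcription factor of the G1/S transition, CCNE1, its cyclin E target, RRM2, a ribonucleotide reductase subunit, MCM4, part of the replicative helicase, and the helicase cofactors GINS1 and GINS2. E2F1 had 102, 79.7 and 99.4 CPM with SAM, against 61.6, 68.1 and 60.9 CPM in controls. RRM2 had 318, 272 and 257 CPM with SAM, against 203, 194 and 200 CPM in controls. The groups did not overlap in either gene. The number of rises was 0 without SAM 1 or control 1, 2 or 3, and 8 without SAM 2 or SAM 3, with medians of 0.24 to 0.33 in these fits. Calls over all tested genes moved as well, with 61 to 114 higher in the former fits. They were 1661 of 15896 without SAM 2 and 1253 of 15900 without SAM 3. The part of the S-phase share of cells in the level of HELLS was not tested.

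**Figure D3:**
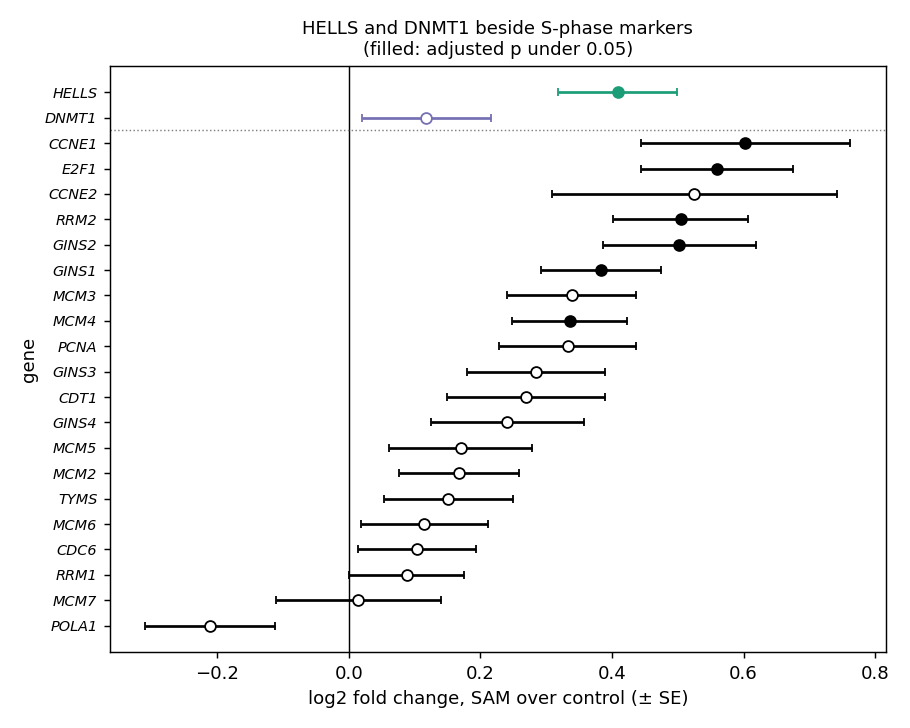
Log2 fold change of SAM over control with its SE (horizontal) for HELLS and DNMT1, above the dotted line, and for 20 S-phase markers sorted by their fold change (vertical). Filled points passed an adjusted p under 0.05, and HELLS at 0.41 lies within the range of the markers, from -0.21 to 0.60, whose median is 0.28.

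Set against PCNA, the replication clamp that DNMT1 binds, HELLS did not separate the groups. The ratio of HELLS to PCNA was 0.126, 0.134 and 0.113 in SAM 1 to 3, against 0.116, 0.118 and 0.119 in control 1 to 3. SAM 3 lay below and SAM 1 and SAM 2 above all controls (log2 difference 0.08, exact permutation p = 0.4, adjusted 0.4). The ratio of DNMT1 to PCNA was 1.13, 1.48 and 1.09 in SAM 1 to 3, against 1.39, 1.31 and 1.56 in control 1 to 3, and the groups overlapped (exact permutation p = 0.3, adjusted 0.375). PCNA had 264, 230 and 283 CPM with SAM, against 219, 205 and 194 CPM in controls. The groups did not overlap, but PCNA did not pass (log2 fold change 0.33, edgeR adjusted p = 0.0686). It was the only S-phase marker used in a ratio, and the log2 fold changes of the 20 markers ran from -0.21 to 0.60.

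**Figure D4:**
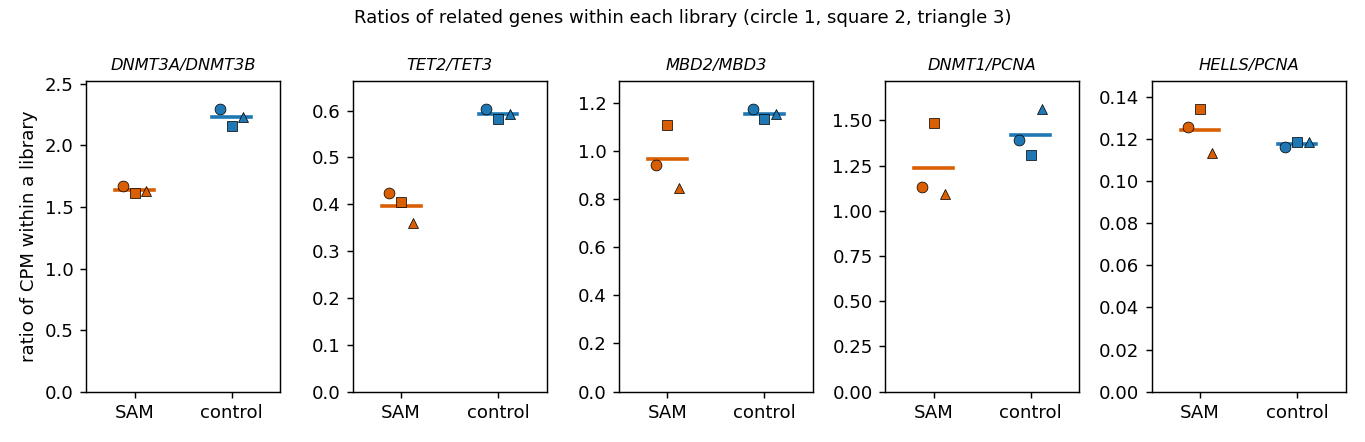
Ratio of CPM of 2 genes within each library (vertical, from 0) for 5 pairs, SAM in orange left of control in blue, with circles, squares and triangles for libraries 1, 2 and 3 and bars for group means. The ratios DNMT3A/DNMT3B and TET2/TET3 average 1.64 and 0.396 with SAM, against 2.23 and 0.593 in controls, without overlap, whereas the ratios to PCNA overlap.

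The TET genes spread widely among the SAM libraries and tightly among the controls. TET2 (ENSG00000168769, chr4:105145875-105279816, plus strand), a dioxygenase often mutated in myeloid malignancy, had 16.8, 20.5 and 8.78 CPM in SAM 1 to 3, against 24.2, 23.3 and 24.9 CPM in control 1 to 3. Every SAM library was below every control, and SAM 3 was far below the others. TET2 averaged 15.4 ± 5.98 CPM with SAM and 24.2 ± 0.818 CPM in controls (SD, n = 3). The log2 fold change was -0.66 (SE 0.24), and the edgeR adjusted p = 0.0976 did not pass over all tested genes. It passed without SAM 3 (log2 fold change -0.39, adjusted p = 0.0368), without SAM 2 (-0.88, adjusted p = 0.0228) and in DESeq2 (-0.65, adjusted p = 0.0328).

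TET3 (ENSG00000187605, chr2:73986404-74108176, plus strand), the most abundant of the erasers, had 39.8, 50.7 and 24.4 CPM in SAM 1 to 3, against 40.2, 40.0 and 42.0 CPM in control 1 to 3. SAM 2 was above and SAM 3 below all controls. The log2 fold change was -0.09 (SE 0.21, edgeR adjusted p = 0.784), and its sign turned to 0.14 without SAM 3. TET1 (ENSG00000138336, chr10:68560656-68694482, plus strand), the scarcest of the genes, had 4.93, 5.58 and 2.05 CPM in SAM 1 to 3, against 5.36, 5.90 and 4.99 CPM in control 1 to 3. The groups overlapped, with SAM 3 the lowest (log2 fold change -0.37, SE 0.29, edgeR adjusted p = 0.411). Without SAM 3 the fold change of TET1 was -0.06.

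In SAM 3 all TET genes were low at once. Relative to the control mean its log2 level was -1.40 for TET1, -1.46 for TET2 and -0.74 for TET3, against -0.52 to 0.31 in SAM 1 and SAM 2. SAM 3 also had the most negative trend on transcript length given above. The longest annotated transcripts of TET1, TET2 and TET3 are 9612, 10166 and 12060 bases, at 42.1, 43.0 and 53.2% GC. DNMT3A, whose longest transcript has 9501 bases at 53.7% GC, stood at -0.42, -0.36 and -0.46 in SAM 1 to 3. The part of transcript length in the levels of the TET genes and of DNMT3A was not tested beyond the following correction. When the trend of each library on transcript length and GC content was removed, the log2 fold changes were -0.24 for TET1, -0.52 for TET2 and 0.03 for TET3. None of the TET genes passed in that fit (edgeR adjusted p = 0.0656 for TET2), and DNMT3A, HELLS and MBD3 still passed. The ratio of TET2 to TET3 was 0.423, 0.404 and 0.359 in SAM 1 to 3, against 0.603, 0.582 and 0.593 in control 1 to 3. That ratio was lower in 3 of 3 SAM libraries than in every control (log2 difference -0.59, exact permutation p = 0.1, adjusted 0.167), SAM 3 being the lowest.

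**Figure D5:**
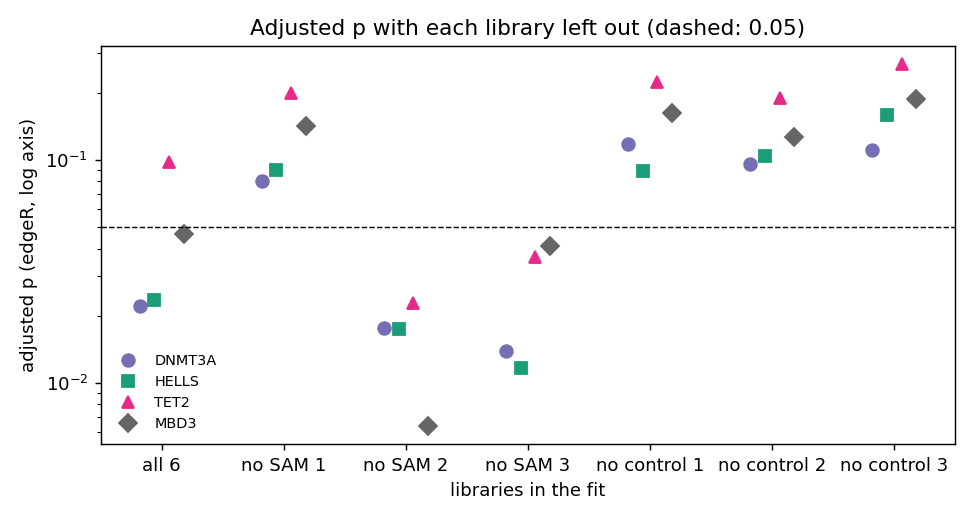
Adjusted p from edgeR on a log axis (vertical) for DNMT3A, HELLS, TET2 and MBD3 with all 6 libraries and with each library left out (horizontal), and a dashed line at 0.05. DNMT3A, HELLS and MBD3 lie under the line with all libraries and without SAM 2 or SAM 3, TET2 only without SAM 2 or SAM 3, and all lie above it without SAM 1 or any control.

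Of the readers, MBD3 rose and MBD2 did not pass the test. MBD3 (ENSG00000071655, chr19:1573596-1592801, minus strand) had 82.8, 65.7 and 90.4 CPM in SAM 1 to 3, against 58.5, 60.3 and 57.6 CPM in control 1 to 3. The groups did not overlap, although SAM 2 lay close to the controls. MBD3 averaged 79.7 ± 12.7 CPM with SAM and 58.8 ± 1.34 CPM in controls (SD, n = 3), a 1.36-fold rise (log2 fold change 0.44, SE 0.12, edgeR adjusted p = 0.0466). Without SAM 1 or control 1, 2 or 3 the adjusted p was 0.126 to 0.187, and with library totals as the only scaling it was 0.0594 at a log2 fold change of 0.41. Another gene on the same strand shares 767 bases of MBD3 exons, 9.70% of their length, and its part in the MBD3 counts was not tested.

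MBD2 (ENSG00000134046, chr18:54151601-54224788, minus strand) had 78.1, 72.7 and 76.6 CPM in SAM 1 to 3, against 68.5, 68.2 and 66.5 CPM in control 1 to 3. The groups did not overlap, but the log2 fold change was 0.16 (SE 0.09) and did not pass (edgeR adjusted p = 0.228). The ratio of MBD2 to MBD3 was 0.943, 1.11 and 0.847 in SAM 1 to 3, against 1.17, 1.13 and 1.15 in control 1 to 3. It was lower in every SAM library, with SAM 2 just below the controls (exact permutation p = 0.1, adjusted 0.167).

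Base composition differed widely between the starts of these genes. The 250 bases upstream of MBD3 and of TET2 are shown because these are the reader that rose and the eraser with the largest difference. They were read 5′ to 3′ on the strand of the gene from RefSeq, with each CpG in capitals. The MBD3 stretch (chr19:1592866-1593115, minus strand) holds 32 CpG and the TET2 stretch (chr4:105145625-105145874, plus strand) holds 10, beside a median of 11 over 27305 promoters. The TET3 stretch held 37 CpG and that of DNMT3B, taken at a RefSeq start inside the annotated gene, held 3. DNA methylation itself was not measured in these libraries.
MBD3 upstream: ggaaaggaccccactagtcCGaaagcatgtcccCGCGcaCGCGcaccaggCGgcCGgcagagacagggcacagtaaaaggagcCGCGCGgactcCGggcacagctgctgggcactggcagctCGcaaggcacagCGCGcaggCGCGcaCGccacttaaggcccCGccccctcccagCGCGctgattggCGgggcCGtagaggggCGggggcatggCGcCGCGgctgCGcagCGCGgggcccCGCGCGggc
TET2 upstream: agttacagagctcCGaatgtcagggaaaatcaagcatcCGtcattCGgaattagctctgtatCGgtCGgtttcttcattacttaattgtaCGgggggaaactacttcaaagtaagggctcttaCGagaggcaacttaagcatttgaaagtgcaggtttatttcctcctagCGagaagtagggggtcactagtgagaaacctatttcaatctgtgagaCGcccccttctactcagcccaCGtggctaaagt

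Levels of different genes were compared per kilobase of annotated exon. In SAM libraries DNMT1 stood at 20.6 ± 1.47 CPM per kb, MBD2 at 13.3 ± 0.484 and MBD3 at 10.1 ± 1.60, and in controls at 18.97 ± 1.34, 11.9 ± 0.191 and 7.43 ± 0.170 (SD, n = 3). The remaining genes were far lower, at 0.435 to 2.96 CPM per kb with SAM and 0.564 to 3.15 in controls, with TET1 the lowest in both groups. DNMT3A was at 1.75 ± 0.0609 with SAM and 2.33 ± 0.0925 in controls, and DNMT3B at 2.14 ± 0.0937 with SAM and 2.09 ± 0.0696 in controls, so that DNMT3A was the lower of the de novo pair in SAM libraries and the higher in controls on this scale. HELLS, at 2.25 ± 0.0810 with SAM and 1.70 ± 0.0846 in controls, did not differ from DNMT3B beyond the spread in SAM libraries. The scale matters: per kb of the longest transcript, DNMT1 had 44.2 with SAM and 40.8 in controls, HELLS had 5.77 with SAM and 4.36 in controls, above TET3, DNMT3A and DNMT3B. On that scale DNMT3A, DNMT3B and TET3 lay within 3.30 to 3.38 in controls.

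Over 6 lists of partner genes, 4 of 58 tested genes passed the test, TRIM28, SMUG1, GADD45B and GATAD2A. That is 6.90%, near the 10.4% of all tested genes. PCNA was counted among both the maintenance partners and the S-phase markers, and MBD4 among both the repair genes and the genes listed as readers. Of 9 tested partners of maintenance methylation, 1 rose and none fell, with a median log2 fold change of 0.06. Without SAM 2 PCNA passed as well, and without SAM 3 CDCA7, which partners HELLS. The rise with all libraries was TRIM28, a corepressor that recruits methylation to retroelements, at 803 ± 79.7 CPM with SAM and 627 ± 7.19 CPM in controls. UHRF2, the paralogue of UHRF1, had 61.1, 62.0 and 58.3 CPM with SAM, against 63.1, 65.3 and 61.0 CPM in controls, and did not pass. Among 8 tested partners of de novo methylation, which include the histone methyltransferases NSD1 and SETD2, 0 passed in edgeR at an adjusted p under 0.05 and 0 in DESeq2. An unadjusted p under 0.05 was found in edgeR for 3 of these 8, beside 30.6% of all tested genes. Without SAM 2, CBX5, a heterochromatin protein, passed as lower. DNMT3L, the catalytically inactive cofactor of the de novo enzymes, was at 0 in all SAM libraries and had at most 2 counts in a control.

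Among 17 tested genes of methylcytosine oxidation and repair, 1 rose and 1 fell, beside 5.19% higher and 5.24% lower among all tested genes. The median log2 fold change was 0.11. Without SAM 2, 3 rose and 3 fell, and without SAM 3, 4 rose and 2 fell, among 18 tested. Over all tested genes 1661 rose and 1572 fell of 15896 without SAM 2, and 1253 rose and 1246 fell of 15900 without SAM 3. None passed without SAM 1, control 2 or control 3, where 61 to 108 of all tested genes were higher and 78 to 114 lower. The median of the list was 0.02 without SAM 1. SMUG1, a glycosylase that removes hydroxymethyluracil, had 35.0, 27.3 and 31.4 CPM with SAM, against 20.4, 21.3 and 21.3 CPM in controls (log2 fold change 0.58, SE 0.11, edgeR adjusted p = 0.0141). GADD45B, a stress gene linked to active demethylation, had 15.6, 16.0 and 20.2 CPM with SAM, against 26.2, 28.7 and 27.5 CPM in controls (log2 fold change -0.67, SE 0.12, edgeR adjusted p = 0.0114). The groups did not overlap in either gene. TDG, the glycosylase that excises oxidised methylcytosine, did not pass (log2 fold change 0.11, edgeR adjusted p = 0.570).

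Of 12 NuRD subunits besides MBD2 and MBD3, 1 rose and none fell, beside 5.19% higher and 5.24% lower among all tested genes. Their median log2 fold change was 0.06, beside -0.01 over all tested genes. The rise was GATAD2A, which bridges the MBD protein to the remodeller, at 200.3 ± 8.50 CPM with SAM and 155 ± 7.71 CPM in controls. Without SAM 2 or SAM 3, CDK2AP1, another subunit, passed as higher as well. Over all tested genes 1661 of 15896 were higher without SAM 2, and 1253 of 15900 without SAM 3. A further 8 genes were listed as methyl-CpG readers by family, and their binding to methylated DNA was not examined. Of these, 0 passed in edgeR, beside 10.4% of all tested genes, and 1 in DESeq2. The share of all genes called in DESeq2 is not given here. A negative fold change was found in 7, and the median was -0.20, beside -0.01 over all tested genes. The unadjusted p was under 0.05 in edgeR for 1 of these 8, beside 30.6% of all tested genes. The call in DESeq2 was MBD5 (log2 fold change -0.43, DESeq2 adjusted p = 0.0461), with 16.7, 18.3 and 13.2 CPM in SAM 1 to 3, against 22.5, 21.6 and 20.8 CPM in control 1 to 3. Without SAM 2, MBD5 passed in edgeR as well (log2 fold change -0.52, adjusted p = 0.0226). The median over this list of 8 ran from -0.27 to -0.10 with 1 library left out. Of 5 tested genes that make SAM or remove its product, 0 passed in edgeR, beside 10.4% of all tested genes, and 1 in DESeq2. The unadjusted p in edgeR was under 0.05 for 3 of them, beside 30.6% of all tested genes. The call in DESeq2 was AHCYL1, a relative of the enzyme that hydrolyses S-adenosylhomocysteine (log2 fold change -0.32, DESeq2 adjusted p = 0.0316). AHCYL1 also passed as lower in edgeR without SAM 2. MAT2A, the SAM synthetase of most tissues, had 158, 150 and 142 CPM with SAM, against 125, 126 and 128 CPM in controls (log2 fold change 0.25, edgeR adjusted p = 0.0958), and passed without SAM 3 (adjusted p = 0.0298). Without SAM 1 or control 2 or 3, TRIM28, SMUG1, GADD45B and GATAD2A were all above the threshold, with adjusted p of 0.0651 to 0.182. Without control 1 the same held except for GADD45B (adjusted p = 0.0454).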

How the data were processed

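Total RNA of 6 PC-3 libraries was sequenced after exposure to SAM or PBS, and the labels were followed where the study's text gives another dose, kit and sequencer. Tools listed in the submitters' notes are STAR 2.4 and HTSeq 0.6.1, beside DESeq2 1.8, SAMtools 0.1.19, CASAVA 1.8.2 and FastQC 0.10.0, with the builds hg19 and mm10 and no roles. The authors deposited raw counts per Ensembl gene and a normalised signal (counts over a size factor of each library). Of 51488 identifiers shared with GENCODE release 44, 99.8% overlapped the same gene in GRCh38, so the coordinates belong to GRCh38, although the counts may rest on another annotation. Rows without a name took 0.468 to 0.619% of counts. Whether counting used strand is not known here. Exon overlap with other genes covers 0.540% of DNMT1, 3.01% of TET3, 3.08% of HELLS and up to 9.70% of MBD3, where reads could be lost or shared.

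Counts were tested in edgeR 4.0.16 (R 4.3.3) by glmQLFit and glmQLFTest with treatment as the only term, after filterByExpr (15312 genes kept) and TMM scaling. Tests were two-sided with Benjamini-Hochberg adjustment over all tested genes and a threshold of 0.05. The SE is the absolute log2 fold change over the square root of F, and 95% intervals use the t distribution. Ratios were compared by exact permutation. Of 9 planned ratios, 4 needed UHRF1 and were not computed. The 9 genes were all named. In the 10 context lists, called genes were named where 5 or fewer were called, and otherwise the 4 with the smallest p. MCM4 and CCNE1 complete a count, and genes that were not called were named after their values were seen. Some genes of the lists are not reported by name here. The members and lists were chosen with earlier results of these data known. Alternatives comprised other scalings and filters, robust dispersion, DESeq2 1.42.0, limma 3.58.1 voom and trend (pseudocount 1), a replicate block, left-out libraries, a term for control 1 and SAM 2, removal of a length and GC trend, thinning to 9379258 counts and a threshold of 0.01.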

Additional observations from a re-analysis of the deposited data

How the results depend on the processing

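With all libraries 2 of the 9 genes were called higher and 1 lower. Genes called higher numbered 0 at an adjusted p under 0.01, 1 with upper-quartile factors, 1 with library totals only, 1 without both control 1 and SAM 2, 0 when thinned to the smallest library and 1 with limma trend on the deposited values. Genes called lower numbered 0 at an adjusted p under 0.01, 2 with no filter on low counts, 0 without both control 1 and SAM 2 and 2 with DESeq2. With 1 library left out, 0 to 2 were called higher and 0 to 2 lower. Without both control 1 and SAM 2, MBD3 passed (adjusted p = 0.0336) and DNMT3A and HELLS did not (0.0949 and 0.0630). DNMT3A, HELLS and MBD3 kept their sign in all 21 alternatives, with log2 fold changes of -0.56 to -0.29, 0.30 to 0.51 and 0.35 to 0.56. The log2 fold change of DNMT3B was -0.0287 when thinned, and with 1 library left out it ran from -0.0015 without SAM 2 to 0.0516. That of TET3 was 0.0343 with the length and GC correction, and ran from -0.331 to 0.139 (without SAM 3) with 1 library left out. The median over the 9 genes was -0.0287 when thinned, and ran from -0.0015 without SAM 2 to 0.138. Over all genes, 795 were called higher and 803 lower. With library totals only, 608 were higher and 961 lower, and with upper-quartile factors 726 and 794. These numbers were 126 and 127 at an adjusted p under 0.01, 1402 and 1341 with no filter, 446 and 508 without both control 1 and SAM 2, 1256 and 1246 with a term for them, 1396 and 1432 after the length and GC correction, and 436 and 440 when thinned. With 1 library left out they ran from 61 to 1661 higher and from 78 to 1572 lower. Why single libraries moved the counts was not tested.

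Same-numbered libraries deviated from their group means with correlations of -0.17, -0.40 and 0.13, so no common deviation was visible. These correlations cannot tell whether same-numbered samples were cultured or handled together. The highest correlation between a SAM and a control library was 0.45, of SAM 2 with control 1, the shallowest of their groups. With the replicate block 0 of the 9 genes were called higher and 0 lower, against 440 and 588 of all genes. Thinning every library to the smallest total gave TET1, at 31 to 143 counts per library, an SE of 0.33, beside 0.29 at full depth and 0.15 without SAM 3.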

Other observations

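A set of 14 germline genes that promoter methylation silences in somatic cells, among them DAZL, MAEL, DDX4 and SYCP3, was measured beside the methylation machinery. None passed the filter on low counts. No member had more than 13 counts in a library (TEX15 in SAM 1), and 5 had none in any library. Summed over the list there were 47 counts in the SAM libraries and 38 in the controls. At this depth no change in the list was detectable. VIM, the intermediate filament of mesenchymal cells, had 15.0, 14.5 and 13.9 CPM with SAM, against 9.22, 10.7 and 10.1 CPM in controls, a rise without overlap (log2 fold change 0.52, edgeR adjusted p = 0.0252) that did not pass without SAM 1 or control 1, 2 or 3.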
